A study of Rattus norvegicus with 9 samples.

Results

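The 10 genes described here mark the path from an oligodendrocyte precursor cell to a new oligodendrocyte: Pdgfra, Cspg4, Sox6, Lhfpl3, Tnr, Gpr17, Bmp4, Neu4, Enpp6 and Bcas1. They were taken by name from tables of 18733 rat genes. Lhfpl3 was found through its gene identifier, 103692025, because the tables list that gene under a provisional symbol, so the symbols alone would have found 9. RNA came from the hippocampus of 9 male rats, sequenced as 1 library per rat in 3 groups of 3. The taVNS rats had a middle cerebral artery occlusion (MCAO, a model of ischaemic stroke), met the criterion for cognitive impairment and received transcutaneous auricular vagus nerve stimulation, a current applied through the skin of the ear, for 14 days. The PSCI (post-stroke cognitive impairment) rats had the same occlusion and met the same criterion, and were fed routinely for 2 weeks without stimulation. The control rats were fed routinely. To be included, a stroke rat had to have a spontaneous alternation rate and a cognitive index that both lay under 20% of the control mean, and the included rats were then divided at random, so both stroke groups hold only animals selected for impairment. Strain, age, the side of the brain sampled, and whether any rat had sham surgery or sham stimulation are not given in the sources used here. The labels call each library a separate rat sample of its group, and p-values below measure the spread between these rats. In bulk tissue, fewer cells of a type and less RNA per cell cannot be told apart, and this holds for every result below.

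Oligodendrocyte precursors persist in the adult hippocampus, where they divide under platelet-derived growth factor, which binds the receptor encoded by Pdgfra. A precursor that commits to differentiation switches off Pdgfra and Cspg4, passes through a brief stage marked by Gpr17 and Bmp4, and then, as a newly formed oligodendrocyte, makes Enpp6 and Bcas1 before the main myelin genes are switched on. Precursors also gather at sites of brain injury.

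Library totals lay between 13747389 and 15415694 counts, and 14840 genes had enough counts to be tested. All 10 genes were among them, with between 70 counts (Bmp4 in PSCI rat 1) and 4670 counts (Tnr in taVNS rat 2) per library. A level that 3 counts would give is 0.195 to 0.218 CPM (counts scaled to the library's total), far under every member's level. The regulators Olig1, Olig2 and Sox10, transcription factors made throughout the lineage, were present in every library. Olig2 had 38.7, 31.1 and 30.7 CPM in taVNS rats, 37.3, 36.2 and 37.3 CPM in PSCI rats, and 37.9, 36.0 and 35.3 CPM in control rats, and Sox10 ranged from 41.6 to 74.3 CPM over the 9 rats; neither was called in any comparison. Olig1 had 112.8, 113.3 and 91.2 CPM in taVNS rats, 141.8, 135.7 and 168.5 CPM in PSCI rats, and 129.6, 132.5 and 115.4 CPM in control rats, and was called lower in taVNS against PSCI (adjusted p = 0.0468, edgeR's quasi-likelihood test). Of 12 hippocampal markers 10 were high enough to be tested, and the list summed to 935.8 to 1372 CPM in taVNS rats, 725.2 to 1428 CPM in PSCI rats and 1059 to 1270 CPM in control rats. A pair of libraries stood apart: markers of meninges and fibroblasts summed to 523.9 CPM in taVNS rat 3 and 476.9 CPM in PSCI rat 2, against 68.0 to 125.3 CPM in the other 7 libraries, with none of the 12 markers at 0 in any library.

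Set per length, as RPKM (reads per kilobase of gene, scaled to the library), Bcas1 was the most abundant of the 10 genes in every group, at 111 ± 18.8 RPKM in taVNS rats, 95.4 ± 29.2 RPKM in PSCI rats and 106 ± 21.9 RPKM in control rats (SD, n = 3 each). Gpr17, Tnr, Lhfpl3 and Pdgfra formed a middle tier, with group means of 13.1 to 30.4 RPKM. Bmp4, Neu4, Cspg4, Sox6 and Enpp6 lay lowest, with group means of 2.67 to 7.67 RPKM. Lhfpl3 was the fourth gene in level in taVNS rats, the second in PSCI rats and the fourth in control rats. Bmp4 was the sixth, the ninth and the sixth in the same groups. Many neighbours in this order overlapped over their libraries. In control rats Gpr17 spanned 20.7 to 25.6 RPKM and Tnr 18.6 to 23.7 RPKM, and in PSCI rats Sox6 spanned 3.73 to 5.25 RPKM and Bmp4 2.90 to 4.25 RPKM. Bcas1 did not overlap its neighbour in any group.

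**Figure D1:**
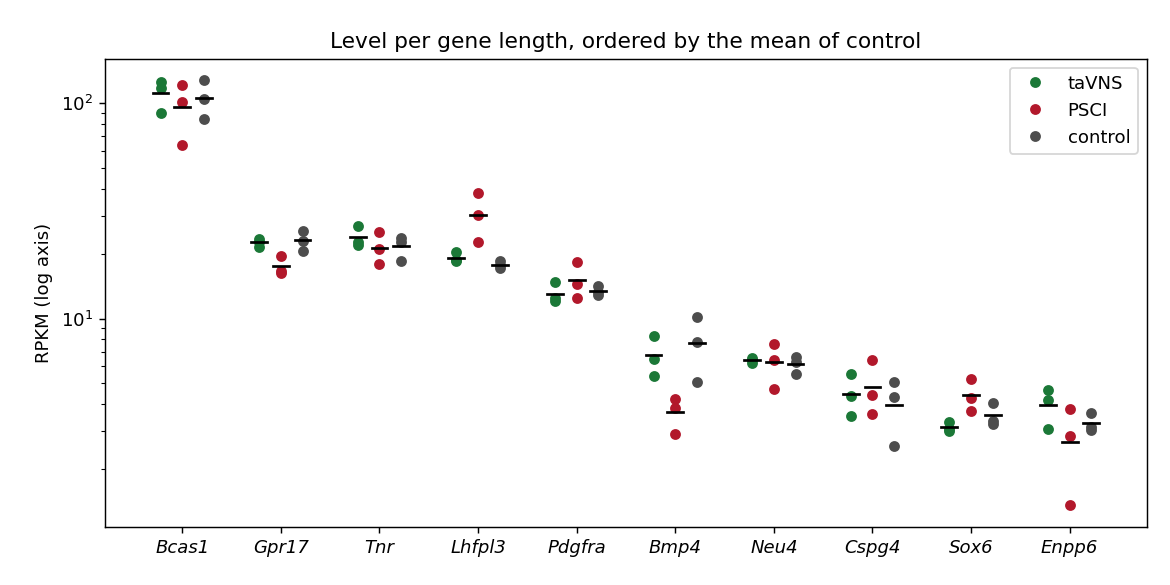
Level of the 10 genes in RPKM (log axis), with taVNS, PSCI and control rats side by side; points are single rats and bars the mean of 3 rats. Bcas1 lies far above the other genes in all 3 groups, and the PSCI points of Lhfpl3, Gpr17 and Bmp4 lie apart from both other groups.

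The comparisons that follow are 3, each a contrast of one fit over all 9 libraries: stroke rats without stimulation against controls, stimulated against unstimulated stroke rats, and stimulated stroke rats against controls. A gene is called when its edgeR quasi-likelihood p, adjusted by Benjamini-Hochberg over all 14840 genes, is under 0.05. Errors of log2 fold changes are standard errors (SE), and intervals are 95% confidence intervals. The first 2 comparisons share the PSCI libraries, so a gene that is high or low in those libraries moves in opposite directions in them.

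In PSCI rats against control rats Lhfpl3 rose, and Gpr17 and Bmp4 fell, while the other 7 genes were not called. That is 3 of 10, with 1 higher and 2 lower, in a comparison in which 9.85% of all tested genes were called, 7.71% higher and 2.14% lower. The PSCI and control libraries did not overlap for these 3 genes, where 27.4% of all tested genes did not overlap. Such shares are given for pairs of groups only. The share of tested genes in which PSCI rats lie apart from both other groups, a pattern described below, was not counted. The median log2 fold change over the 10 genes was -0.07, and over all tested genes -3.68e-05. The calls lie near the threshold. The count was 0 when control rat 1, control rat 2, PSCI rat 2 or PSCI rat 3 was left out, 1 without control rat 3, taVNS rat 1 or taVNS rat 2, and 2 without PSCI rat 1 or taVNS rat 3. All 3 kept their direction under each of 21 alternatives. These reuse the same libraries, and groups that do not overlap leave little room for a change of sign.

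Lhfpl3, a membrane protein of the lipoma HMGIC fusion partner-like family whose transcript is enriched in precursors, was higher in PSCI rats. Its level was 40.6, 39.0 and 38.7 CPM in taVNS rats, 47.3, 77.2 and 66.1 CPM in PSCI rats, and 39.8, 37.8 and 43.0 CPM in control rats. Every PSCI rat stood above every rat of both other groups, by a narrow margin for PSCI rat 1, and the PSCI rats were the most spread. The log2 fold change of PSCI against control was 0.66 ± 0.16 (SE; interval 0.30 to 1.02; adjusted p = 0.0316, edgeR), a 1.58-fold higher level. Over the alternatives it ranged from 0.48 to 0.83 and was called under 12 of 21, with adjusted p up to 0.106; leaving out control rat 1, 2 or 3, PSCI rat 2 or 3, or taVNS rat 2 ended the call (adjusted p 0.0879, 0.106, 0.0731, 0.0569, 0.0956 and 0.0524). In taVNS rats against PSCI rats Lhfpl3 fell, with a log2 fold change of -0.69 ± 0.16 (interval -1.04 to -0.33; adjusted p = 0.0396). That call was kept under 5 of 21 alternatives, with adjusted p up to 0.16, and among the single libraries only leaving out PSCI rat 1 kept it.

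Within the PSCI group Lhfpl3 was lowest in rat 1 and highest in rat 2. The summed markers of cell division, microglia and macrophages, astrocytes and meninges ran in the same order. A list of 24 further precursor markers, described below, did so too in sum, at 1567, 2270 and 2103 CPM in PSCI rats 1, 2 and 3. Its genes did not all share that order. Fabp7, which astrocytes make too, did at 152.1, 337.3 and 240.7 CPM, and Ptprz1 at 398.5, 560.8 and 455.6 CPM. Olig1, at 141.8, 135.7 and 168.5 CPM, and Sox10, at 60.05, 44.61 and 74.34 CPM, were instead lowest in rat 2. Endothelial markers summed in the order of Lhfpl3, at 230.1, 249.1 and 241.9 CPM. Neuronal markers ran in the opposite order, at 10750, 6352 and 9797 CPM. The 8 cell division markers, Mki67 and Top2a among them, summed to 167.7, 482.5 and 260.2 CPM in PSCI rats 1, 2 and 3, against 53.2 to 66.8 CPM in taVNS rats and 55.9 to 60.9 CPM in control rats. All 8 were higher in PSCI against control and all 8 were lower in taVNS against PSCI. Markers of microglia and macrophages summed to 255.5 to 321.6 CPM in taVNS rats, 467.4, 730.4 and 560.0 CPM in PSCI rats 1, 2 and 3, and 173.3 to 239.1 CPM in control rats, and 7 of 8 were higher in PSCI against control. The other, Tmem119, had a log2 fold change below 0 there and was not called. It averaged 26.1 ± 5.39 CPM in taVNS rats and 13.5 ± 1.63 CPM in PSCI rats, called higher in taVNS under 13 of 21 alternatives. Astrocyte markers summed to 2882 to 3782 CPM in taVNS rats, 6903, 10460 and 9308 CPM in PSCI rats 1, 2 and 3, and 2503 to 3625 CPM in control rats, with Gfap and Aqp4 called of 8. Gfap averaged 6107 CPM in PSCI rats and 945.9 CPM in control rats, and so made up most of the sum in PSCI rats. In PSCI against control 5 of the 8 had a log2 fold change above 0 and 3 below, with a median of 0.28. The part of these cells in the level of Lhfpl3 was not tested. With PSCI rat 2 and taVNS rat 3, the libraries high in meningeal markers, both left out, the log2 fold change of Lhfpl3 was 0.48 in PSCI against control (adjusted p = 0.0835, edgeR) and -0.50 in taVNS against PSCI (adjusted p = 0.16).

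Gpr17, a G protein-coupled receptor of the committed stage that restrains maturation in mice, was lower in PSCI rats. Its level was 121.5, 123.7 and 110.6 CPM in taVNS rats, 103.3, 81.1 and 87.5 CPM in PSCI rats, and 124.6, 137.1 and 110.1 CPM in control rats. All 3 PSCI rats lay below all 6 others, and the taVNS rats lay within the range of the control rats. The log2 fold change of PSCI against control was -0.45 ± 0.12 (interval -0.71 to -0.19; adjusted p = 0.041, edgeR), a 1.37-fold lower level. It ranged from -0.56 to -0.37 over the alternatives and was called under 6 of 21, with adjusted p up to 0.125; of the fits leaving out 1 library, the call stood only without PSCI rat 1 (adjusted p = 0.013). In taVNS against PSCI the estimate was 0.39 ± 0.12 (interval 0.13 to 0.65), with adjusted p = 0.091, so it was not called although the groups did not overlap.

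Bmp4 encodes a secreted bone morphogenetic protein and is a transcript of committed precursors; the protein holds back oligodendrocyte differentiation and favours astrocytes in cultured precursors. Its level was 10.3, 13.6 and 7.86 CPM in taVNS rats, 4.77, 5.04 and 6.46 CPM in PSCI rats, and 16.4, 11.8 and 8.15 CPM in control rats. Again all PSCI rats lay below all others, while the control and taVNS rats each spread widely. The log2 fold change of PSCI against control was -1.16 ± 0.29 (interval -1.81 to -0.50; adjusted p = 0.0372, edgeR), a 2.23-fold lower level and the largest change among the 10 genes. It ranged from -1.39 to -0.86 over the alternatives and was called under 8 of 21, with adjusted p up to 0.11; among single libraries it stood without control rat 3, taVNS rat 2 or taVNS rat 3. For taVNS against PSCI the estimate was 0.97 ± 0.29 (interval 0.31 to 1.62; adjusted p = 0.0914), not called. With PSCI rat 2 and taVNS rat 3 left out, the estimates of PSCI against control were -0.39 for Gpr17 (adjusted p = 0.101) and -1.12 for Bmp4 (adjusted p = 0.0631).

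**Figure D2:**
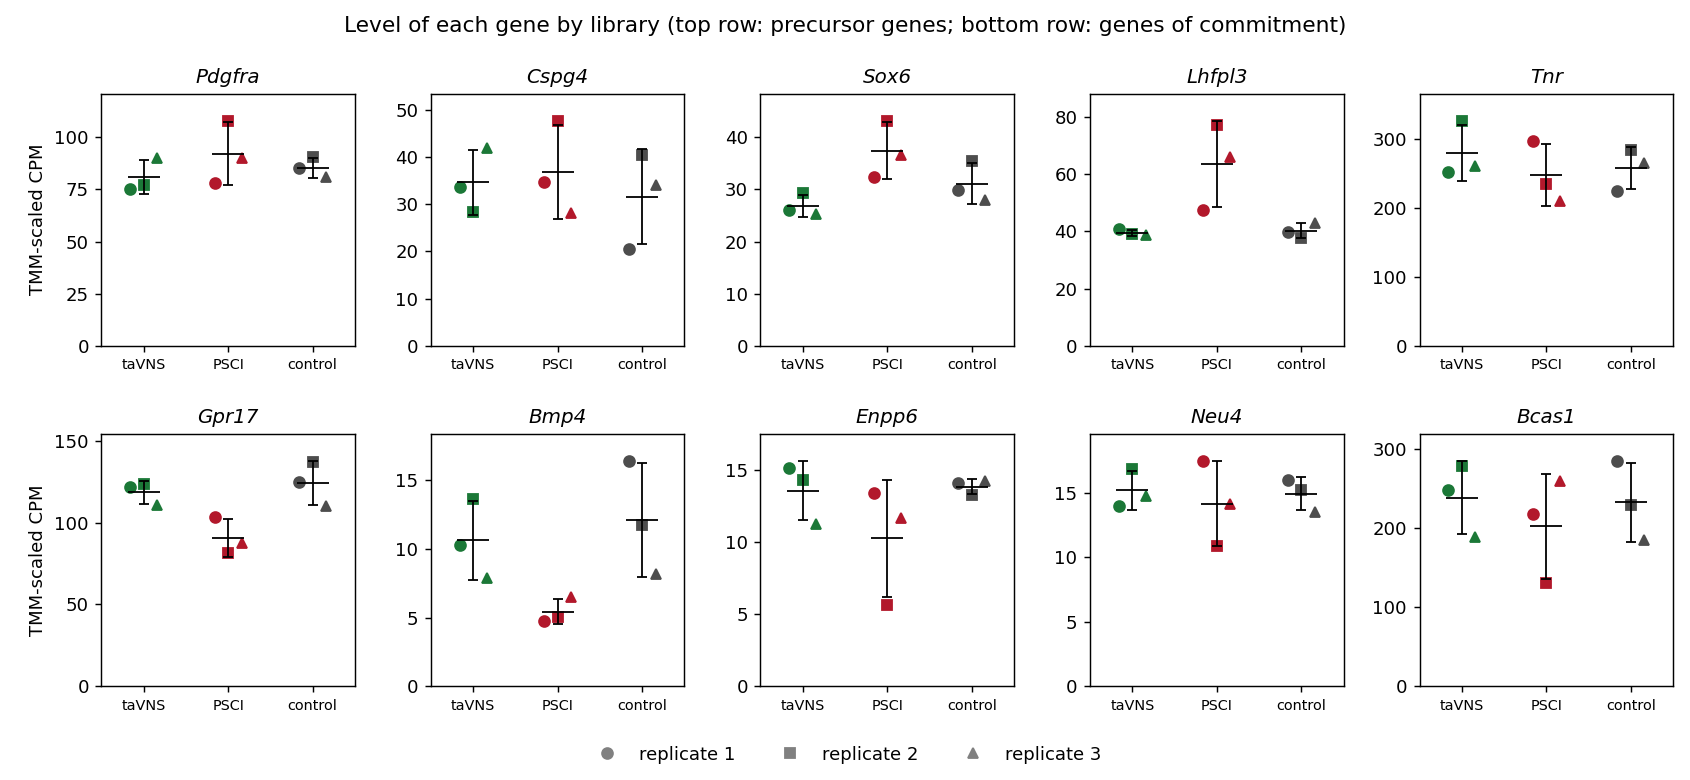
CPM in each rat for each of the 10 genes, 1 panel per gene with its own axis from 0, groups in the order taVNS, PSCI, control; points are rats, the bar is the mean of 3 and the error bar the SD. Lhfpl3 is higher in all 3 PSCI rats than in all others, and Gpr17 and Bmp4 are lower in all 3.

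Lhfpl3 and Bmp4 carry the largest called changes, in opposite directions, and the 250 bases before their gene starts are given to show what precedes each of them. The sequences are from RefSeq on build GRCr8, a later build than mRatBN7.2, to which the reads were aligned. Both genes lie on the minus strand, Bmp4 at chr15:22101934-22102183 and Lhfpl3 at chr4:13271375-13271624. Both are written 5′ to 3′ on the gene's strand, with capitals for motif matches: the SOX motif (ACAAAG or TCAAAG, and the same with AATG in place of AAAG at the end) and the E-box CANNTG bound by basic helix-loop-helix factors, each searched on both strands.
Bmp4: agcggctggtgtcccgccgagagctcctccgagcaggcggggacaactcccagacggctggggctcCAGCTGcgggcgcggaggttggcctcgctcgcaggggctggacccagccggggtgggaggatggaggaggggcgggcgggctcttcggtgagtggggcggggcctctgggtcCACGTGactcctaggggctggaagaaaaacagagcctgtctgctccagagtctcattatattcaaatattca
Lhfpl3: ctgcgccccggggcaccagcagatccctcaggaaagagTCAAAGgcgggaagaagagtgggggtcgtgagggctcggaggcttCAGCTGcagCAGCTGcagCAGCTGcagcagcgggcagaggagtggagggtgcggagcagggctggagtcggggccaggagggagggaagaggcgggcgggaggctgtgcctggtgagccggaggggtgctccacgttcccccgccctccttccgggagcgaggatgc
Bmp4 has 2 E-box matches and 0 SOX matches in a window of 66.4% G and C. Lhfpl3 has 3 E-box matches, all of the same CAGCTG, and 1 SOX match in a window of 70.0% G and C. Of the 10 genes 9 had such a sequence (Bcas1 had none in the table); 6 of the 9 held a SOX match and 7 an E-box match. Among 27456 rat promoters of the same length 39.4% held a SOX match and 65.2% an E-box match. A match is a string of letters and not a shown binding site.

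Among the remaining precursor genes none was called in any comparison. Pdgfra, the platelet-derived growth factor receptor alpha chain, had 75.3, 77.1 and 90.2 CPM in taVNS rats, 77.9, 108 and 90.3 CPM in PSCI rats, and 85.2, 90.4 and 80.7 CPM in control rats. Cspg4, the NG2 proteoglycan of precursors and pericytes, had 33.6, 28.3 and 41.9 CPM in taVNS rats, 34.7, 47.7 and 28.2 CPM in PSCI rats, and 20.5, 40.4 and 33.9 CPM in control rats. For both genes the 3 groups overlap, and the highest rat of the taVNS and of the PSCI group is the one high in meningeal markers; Pdgfra is also made by fibroblasts, and the part of such cells was not tested. Pdgfra had a log2 fold change of 0.11 in PSCI against control (interval -0.18 to 0.39) and -0.19 in taVNS against PSCI (interval -0.47 to 0.10). Cspg4 had wider intervals, -0.39 to 0.84 in PSCI against control and -0.70 to 0.52 in taVNS against PSCI. Pericyte and smooth muscle markers summed to 94.2 to 142.8 CPM in taVNS rats, 99.04 to 129.2 CPM in PSCI rats and 72.5 to 108.7 CPM in control rats, and 2 of 11, Anpep and Myh11, were higher in PSCI against control. Those calls were kept under 16 and 14 of 21 alternatives (adjusted p up to 0.113 and 0.0812), and each was lost without any 1 control rat, that of Anpep also without PSCI rat 3.

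Sox6, a transcription factor that keeps precursors from differentiating, had 26.1, 29.3 and 25.3 CPM in taVNS rats, 32.4, 43.2 and 36.6 CPM in PSCI rats, and 29.8, 35.5 and 28.1 CPM in control rats. All 3 taVNS rats lay below all 3 PSCI rats, and PSCI and control rats overlapped. The log2 fold change of taVNS against PSCI was -0.48 ± 0.14 (interval -0.78 to -0.17; adjusted p = 0.0801, edgeR), not called, whereas DESeq2 called it (adjusted p = 0.0345). Tnr encodes tenascin-R, a matrix glycoprotein of perineuronal nets made by oligodendrocyte lineage cells and some interneurons. It had 253, 327 and 261 CPM in taVNS rats, 297, 234 and 210 CPM in PSCI rats, and 224, 284 and 266 CPM in control rats. Its groups overlapped, and the interval of PSCI against control was -0.42 to 0.30.

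The genes of later steps were not called either. Neu4, a sialidase of the lineage, had 13.9, 16.9 and 14.8 CPM in taVNS rats, 17.5, 10.9 and 14.2 CPM in PSCI rats, and 16.01, 15.2 and 13.5 CPM in control rats. Enpp6, a choline phosphodiesterase of newly formed oligodendrocytes, had 15.1, 14.3 and 11.3 CPM in taVNS rats, 13.4, 5.67 and 11.7 CPM in PSCI rats, and 14.1, 13.3 and 14.3 CPM in control rats. PSCI rat 2 was the lowest of all 9 rats for both genes. Bcas1, a protein of early myelinating oligodendrocytes, had 248, 279 and 188 CPM in taVNS rats, 217, 130 and 260 CPM in PSCI rats, and 284, 229 and 185 CPM in control rats. Here too PSCI rat 2 was lowest. The intervals for PSCI against control were -0.47 to 0.32 for Neu4, -1.06 to 0.19 for Enpp6 and -0.79 to 0.39 for Bcas1.

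**Figure D3:**
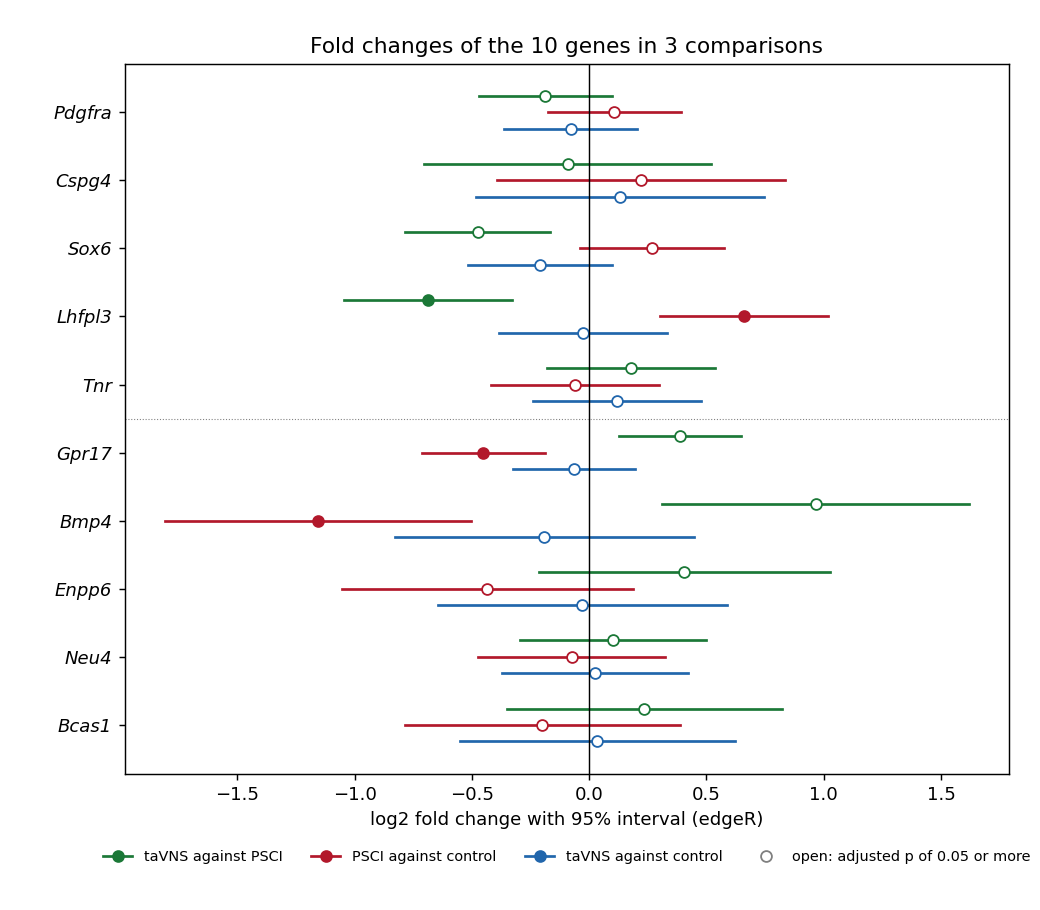
Log2 fold change of the 10 genes (points) with 95% confidence intervals (lines) for taVNS against PSCI, PSCI against control and taVNS against control, from the edgeR fit of all 9 libraries; filled points are called. Lhfpl3, Gpr17 and Bmp4 are called in PSCI against control, Lhfpl3 alone is called in taVNS against PSCI, and all intervals of taVNS against control hold 0.

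In taVNS rats against PSCI rats 1 of the 10 genes was called, Lhfpl3, which was lower; of all tested genes 5.75% were called, 4.91% lower. The median log2 fold change of the 10 genes was 0.14, and that of all tested genes -0.00151. Groups did not overlap for 4 of the 10, Lhfpl3, Sox6, Gpr17 and Bmp4, where 25.9% of all tested genes did not overlap. DESeq2 called those 4 (adjusted p of 0.00295 for Lhfpl3, 0.0345 for Sox6, 0.0339 for Gpr17 and 0.0262 for Bmp4), and limma-voom called 0. The count under edgeR was 3 without PSCI rat 1 and 0 when any other single library was left out.

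Stimulated stroke rats against controls gave no called gene among the 10. Their log2 fold changes lay between -0.21 for Sox6 and 0.13 for Cspg4, every adjusted p was 1 and all groups overlapped. Of all tested genes 11.1% did not overlap in that comparison. No member had an unadjusted p under 0.05 in edgeR's test, and DESeq2 and limma-voom also called 0 of the 10. Over all tested genes edgeR called 0 (0%) and gave 557 (3.75%) an unadjusted p under 0.05, while DESeq2 called 10. The intervals were -0.38 to 0.33 for Lhfpl3, -0.32 to 0.20 for Gpr17 and -0.83 to 0.45 for Bmp4. They do not show that stimulated rats and controls were alike.

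Setting a member against Pdgfra in the same library gives a ratio of transcripts within each rat, on counts and so without regard to gene length. Pdgfra is not confined to the lineage, and was highest in the taVNS and in the PSCI rat with high meningeal markers, so the ratio is not one of lineage cells alone. Per 100 Pdgfra counts, Lhfpl3 had 54.0, 50.6 and 43.0 counts in taVNS rats, 60.7, 71.5 and 73.2 in PSCI rats, and 46.7, 41.8 and 53.2 in control rats. The PSCI rats were again above all others. On this measure they were closer together than in CPM, whereas the taVNS rats and the control rats were further apart. Gpr17 had 161, 161 and 123 counts per 100 Pdgfra counts in taVNS rats, 133, 75.1 and 97 in PSCI rats, and 146, 152 and 136 in control rats. Bmp4 had 13.7, 17.7 and 8.71 in taVNS rats, 6.12, 4.66 and 7.16 in PSCI rats, and 19.2, 13 and 10.1 in control rats. For Bmp4 the PSCI rats stayed below all others, whereas for Gpr17 PSCI rat 1 stood above taVNS rat 3. These ratios reuse the libraries of the comparisons above and were not tested.

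**Figure D4:**
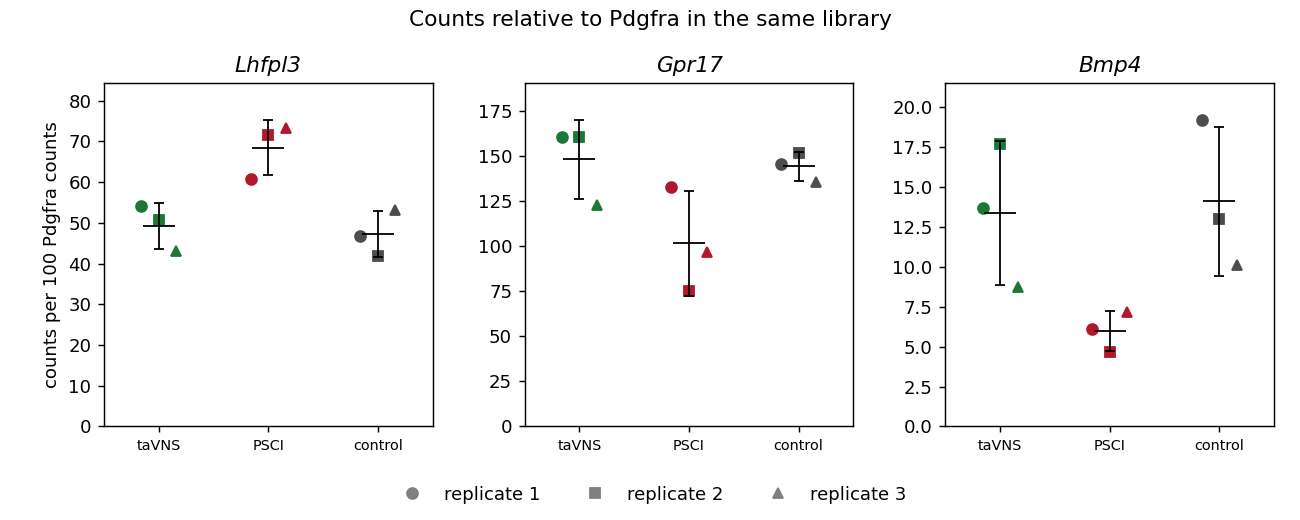
Counts of Lhfpl3, Gpr17 and Bmp4 per 100 counts of Pdgfra in each rat, groups in the order taVNS, PSCI, control; points are rats, the bar is the mean of 3 and the error bar the SD. Lhfpl3 is higher in every PSCI rat, 60.7 to 73.2, than in every other rat, 41.8 to 54.0, and Bmp4 is lower in every PSCI rat.

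The other genes of the lineage moved in both directions. The counts of each list below stand beside 9.85% of all tested genes called in PSCI against control, and 5.75% in taVNS against PSCI. Of 24 further precursor markers, 3 rose and 1 fell in PSCI against control, with a median log2 fold change of 0.01. Fabp7, a fatty acid binding protein of precursors, radial glia and astrocytes, averaged 243 ± 92.7 CPM in PSCI rats and 69.4 ± 9.27 CPM in control rats (log2 fold change 1.81 ± 0.25, adjusted p = 0.00376, edgeR). The matrix proteoglycans Ncan and Vcan, which astrocytes make too, rose by 1.29 ± 0.25 and 0.87 ± 0.19 on the log2 scale. Their calls were lost without control rat 1 or 3 for Ncan (adjusted p up to 0.0674) and without any 1 control rat or PSCI rat 3 for Vcan (up to 0.077). Luzp2, a leucine zipper protein, fell to 78.7 ± 11.5 CPM in PSCI rats, against 132 ± 3.60 CPM in control rats (-0.75 ± 0.11, adjusted p = 0.0056). In taVNS against PSCI none of the 24 rose and 4 fell, and the count that fell ranged from 1 to 6 over the alternatives. Fabp7 averaged 70.3 ± 2.76 CPM in taVNS rats and 243 ± 92.7 CPM in PSCI rats (-1.79 ± 0.25, adjusted p = 0.00572), and Ncan, Vcan and Olig1 fell by 1.09, 0.87 and 0.49. The call of Ncan was kept under 6 of 21 alternatives (adjusted p up to 0.162) and that of Vcan under 9 (up to 0.116). The call of Olig1, the nearest of the 4 to the threshold, was not followed over the alternatives. The calls of Fabp7 in both comparisons, and of Luzp2, were kept under all 21 alternatives.

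Of 24 genes of committed and newly formed oligodendrocytes, 1 rose and 2 fell in PSCI against control, with a median of -0.05. Over all tested genes 9.85% were called there. Rnd2, a small GTPase, averaged 66.4 ± 4.15 CPM in PSCI rats and 117 ± 17.8 CPM in control rats (-0.82 ± 0.15, adjusted p = 0.0102, edgeR), and was called under all 21 alternatives. Tmem163, a zinc transporter, fell by 0.92 ± 0.21, a call lost without any 1 control rat or PSCI rat 3 (adjusted p up to 0.0799). Itpr2, an inositol trisphosphate receptor, rose by 0.80 ± 0.16, a call lost without control rat 1 or 3 (up to 0.0694). Of the 24, 2 rose in taVNS against PSCI, Tmem163 by 0.89 and Rnd2 by 0.61, and Glul, the glutamine synthetase of astrocytes and oligodendrocytes, fell by 0.74. Those 3 calls were kept under 6 or 7 of the 21 alternatives.

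Of 20 myelin genes of mature oligodendrocytes, 2 rose and 0 fell in PSCI against control, with a median of 0.11. Over all tested genes 9.85% were called there, 7.71% higher. The list summed to 14030, 15520 and 9970 CPM in taVNS rats, 16390, 6849 and 17360 CPM in PSCI rats, and 18910, 12860 and 10750 CPM in control rats, so PSCI rat 2, which also had the lowest neuronal sum, stood below all others. Klk6, a secreted protease, averaged 69.2 ± 30.2 CPM in PSCI rats and 14.9 ± 6.93 CPM in control rats (2.21 ± 0.38, adjusted p = 0.00875, edgeR). Tf, transferrin, averaged 1634 ± 573 CPM in PSCI rats and 490.5 ± 123 CPM in control rats (1.74 ± 0.30, adjusted p = 0.00893). Leaving out control rat 3 ended both calls, at adjusted p of 0.0516 and 0.0514. The same 2 genes fell in taVNS against PSCI, Klk6 by 1.83 ± 0.37 and Tf by 1.62 ± 0.30, and none rose. Without taVNS rat 1 or 3 neither was called, nor was Klk6 without taVNS rat 2 or PSCI rat 3 (adjusted p up to 0.101).

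Signals that act on precursors were also looked at by list. Of 16 genes of platelet-derived and fibroblast growth factor signalling, 1 rose and 2 fell in PSCI against control. Spry4, an inhibitor of receptor tyrosine kinase signalling, averaged 9.45 ± 0.44 CPM in PSCI rats and 15.8 ± 0.75 CPM in control rats (-0.74 ± 0.12, adjusted p = 0.0068, edgeR), under every alternative. Etv5, a transcription factor downstream of fibroblast growth factor, fell by 0.50, and Pdgfc, a ligand of the Pdgfra receptor, rose by 1.11; these were called under 9 and 16 of the 21 alternatives. Spry4 rose in taVNS against PSCI by 0.51 and Pdgfc fell by 1.08, calls kept under 3 and 8 of 21.

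Of 27 genes of the bone morphogenetic protein pathway, Bmp4 not among them, 26 were tested. In PSCI against control edgeR called 0 of them, with 4 at an unadjusted p under 0.05; limma-voom also called 0, and DESeq2 called 2, Smad9 and Bmp1. Their median was 0.18. In taVNS against PSCI Smad9, a signal transducer of the pathway, fell to 5.23 ± 0.63 CPM in taVNS rats, against 9.91 ± 2.72 CPM in PSCI rats (-0.92 ± 0.22, adjusted p = 0.0412), and was called under 6 of 21 alternatives.

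Of 22 Notch, Wnt and other regulators of differentiation, 21 were tested, and 1 rose and 3 fell in PSCI against control. Called or not, 16 had a log2 fold change above 0 there and 5 below, with a median of 0.12. In edgeR's test 10 of the 21 had an unadjusted p under 0.05, as did 25.3% of all tested genes. Hes5, a Notch target that holds back differentiation, had 10.5, 9.65 and 10.3 CPM in taVNS rats, 3.34, 5.04 and 3.07 CPM in PSCI rats, and 11.9, 12.3 and 9.77 CPM in control rats. The PSCI rats were below all others. The log2 fold change of PSCI against control was -1.57 ± 0.21 (adjusted p = 0.00326, edgeR) and that of taVNS against PSCI 1.41 ± 0.21 (adjusted p = 0.00757), both called under all 21 alternatives. Cxcl12, a chemokine, and Hey1, a Notch target, fell in PSCI against control by 0.94 and 0.42, and Cxcr4, the receptor of Cxcl12, rose by 1.23, called under 15, 6 and 17 of 21. No further gene of that list was called in taVNS against PSCI.

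Of 10 genes of the perineuronal matrix that tenascin-R binds or joins, 2 fell in PSCI against control. Bcan, a proteoglycan of these nets made by astrocytes and precursors, averaged 300 ± 37.3 CPM in PSCI rats and 469 ± 58.5 CPM in control rats (-0.65 ± 0.12, adjusted p = 0.0136, edgeR), a call lost without control rat 2 (0.0546). Cntn1, a neuronal adhesion molecule that binds tenascin-R, fell by 0.42 in PSCI against control and rose by 0.42 in taVNS against PSCI, called under 15 and 11 of 21 alternatives. Of the 10 genes, 4 had a log2 fold change above 0 in PSCI against control and 6 below, with a median of -0.22. In taVNS against PSCI 8 were above 0 and 2 below, with a median of 0.27. The matrix proteoglycans Ncan and Vcan, counted above with the precursor markers and not in this list, rose by 1.29 and 0.87 in PSCI against control. Interneuron markers summed to 510.5 to 661.0 CPM in taVNS rats, 503.3 to 577.9 CPM in PSCI rats and 618.7 to 694.3 CPM in control rats; 1 of 10, Erbb4, fell in PSCI against control, called under 13 of 21 alternatives (adjusted p up to 0.103) and not without control rat 2, control rat 3 or PSCI rat 3. Neuronal markers summed to 9692 to 12160 CPM in taVNS rats, 6352 to 10750 CPM in PSCI rats and 10700 to 11840 CPM in control rats. The part of these cells in the perineuronal genes was not tested.

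Across the 7 lists, which hold 143 genes, edgeR called 18 of 141 tested in PSCI against control, 8 higher and 10 lower, where 9.85% of all tested genes were called. DESeq2 called 26 there, 16 higher and 10 lower, and limma-voom 18, 8 higher and 10 lower. For taVNS against PSCI, where 5.75% of all tested genes were called, edgeR called 14, 5 higher and 9 lower, DESeq2 24, 9 higher and 15 lower, and limma-voom 6, 2 higher and 4 lower. For taVNS against control edgeR called 0, where 7 had an unadjusted p under 0.05 and DESeq2 and limma-voom called 0 as well.

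**Figure D5:**
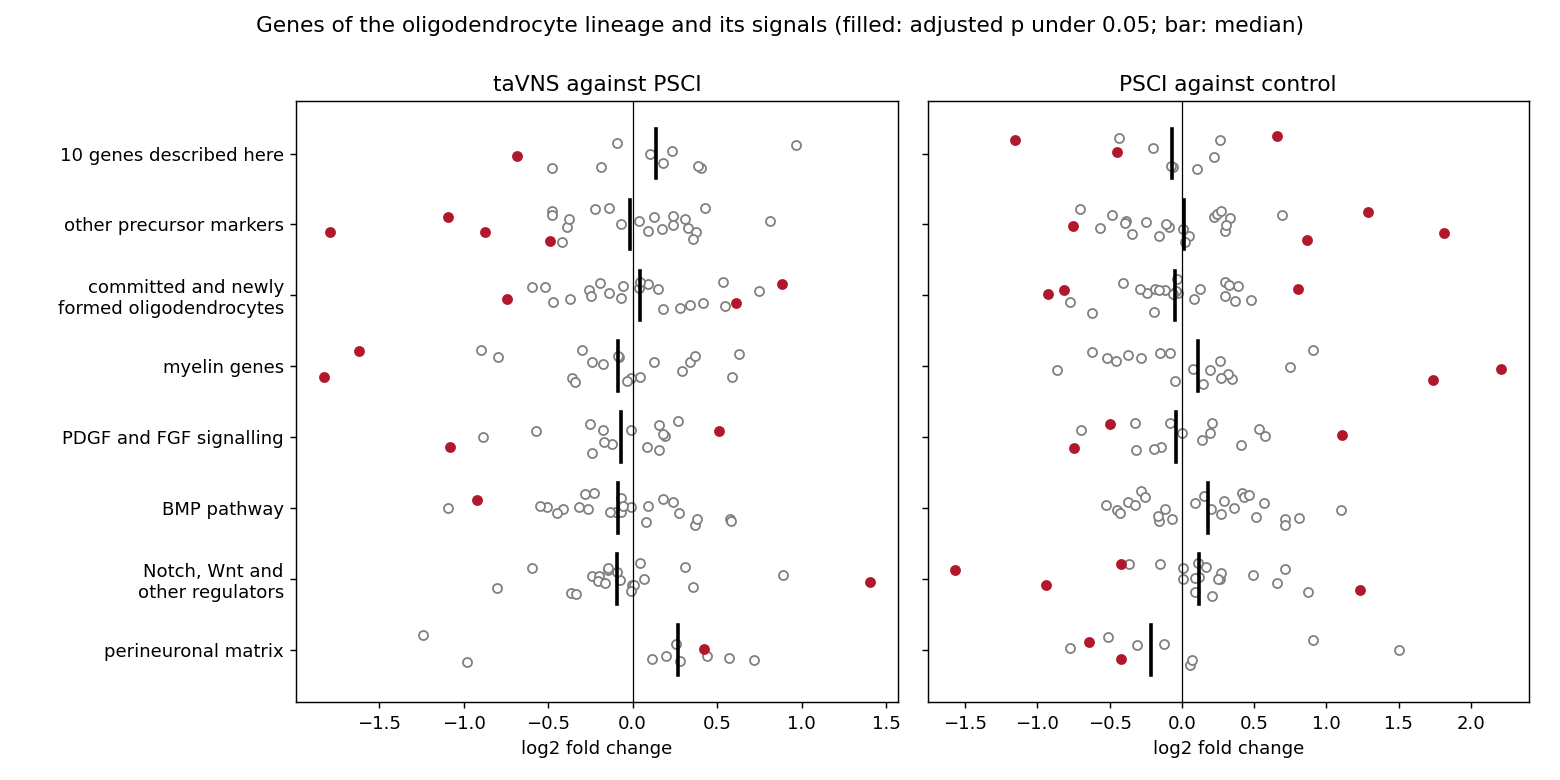
Log2 fold change of each tested gene of the 7 lists and of the 10 members (points, filled where called, with a bar at the median), for taVNS against PSCI and PSCI against control. Over the lists together called genes lie on both sides of 0 in both comparisons, but not within every list. The medians furthest from 0 are those of the perineuronal matrix, 0.27 in taVNS against PSCI and -0.22 in PSCI against control.

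For each of the 10 genes, the genes of most alike profile over the 9 libraries were found by the root mean square difference of their centred log2 CPM, among genes that varied at least 0.8 times as much. The nearest was Ptprz1 to Sox6, at 0.048 on the log2 scale. Lhfpl3 lay nearest to Bid (0.0583), Gpr17 to Brsk1 (0.0694), Pdgfra to Sh3d19 (0.0622) and Neu4 to Plcl2 (0.058). Tnr lay nearest to Bptf (0.0667), Enpp6 to C1qtnf4 (0.0938) and Bcas1 to Cfap20dc (0.103). Bmp4 lay nearest to Btbd17, at 0.219, among its 2436 candidates. Distances were not scaled to a gene's own SD of log2 CPM, which was 0.163 for Pdgfra and 0.611 for Bmp4. They therefore do not rank the members by how closely another gene follows them. These are descriptions over 9 libraries that share the group differences.

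Counts and RPKM values of the same libraries did not always move together. Between libraries, the RPKM per count, on the log2 scale, ranged over 0.486 for Enpp6, more than in 99% of 11565 genes compared, over 0.303 for Lhfpl3 (96.2%), over 0.247 for Bmp4 (94.0%) and over 0.173 for Neu4; for the other 6 it ranged over at most 0.03. RefSeq lists 3 transcripts for Enpp6, 4 for Lhfpl3 and 9 for Bmp4, but also 30 for Sox6, and the part of transcript choice was not tested. Between the scales, log2 ratios of the 10 genes differed by at most 0.138 in PSCI against control, 0.165 in taVNS against PSCI and 0.304, for Enpp6, in taVNS against control. The sign differed only for uncalled genes: Neu4 in PSCI against control, and Enpp6 and Lhfpl3 in taVNS against control. On log2 RPKM with limma 1 of the 10 genes, Lhfpl3, was called in PSCI against control.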

How the data were processed

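Poly(A) RNA of 50 mg of hippocampus per rat, with an RNA integrity number of at least 7, was made into strand-marked libraries, per the labels' protocols (which in one place say mouse). Per the submitters' processing notes the authors used HISAT2 2.0.4, RSEM 1.2.8 and build mRatBN7.2. The authors deposited expected counts per gene (91.1 to 91.6% whole numbers per library) and RPKM values. Expected counts were rounded to whole numbers; genes were filtered with filterByExpr, scaled by TMM and fitted over all 9 libraries, with no covariate, by edgeR 4.0.16 (R 4.3.3), and CPM values use the same scaling. DESeq2 1.42.0 and limma 3.58.1 served as alternatives, together with other scalings, filters and pseudocounts of 0.1 and 1 RPKM, and single libraries left out. The edgeR fit alone was tested on simulated counts with known changes, for PSCI against control and with the same spread in all groups. That run does not bear on the single calls given here. Gene identifiers were matched to RefSeq (GRCr8), which held 18486 of 18733. Members and lists were chosen with earlier results of these data known, so list counts are no independent evidence. Of a list, the up to 3 called genes per direction with the largest change and a mean of at least 1 CPM are named; genes beyond that were named after their values were seen. The gene most like Cspg4 is not reported here.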

Additional observations from a re-analysis of the deposited data

How the results depend on the processing

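Counts of genes called are given for PSCI against control, then for taVNS against PSCI, then for taVNS against control, and stood at 1461, 854 and 0, with 3, 1 and 0 of the 10 members. DESeq2 called 2257, 1550 and 10 genes, with 3, 4 and 0 members. Fitting the 2 compared groups alone gave 806 and 250 genes and 0 members in either. limma-voom called 480 genes in taVNS against PSCI, and 1 and 0 members. limma on log2 RPKM with a pseudocount of 0.1, of 1, or of 0.1 with no filter gave 1 and 0 members under each setting, and without the filter 1 gene in taVNS against control. Scaling by library size alone gave 0 members in taVNS against PSCI. Without both libraries high in meningeal markers, an alternative chosen after seeing the data, there were 361 genes in taVNS against PSCI, 1 in taVNS against control, and 0 members in either stroke comparison. Leaving out 1 library gave 548 to 2255 genes and 0 to 2 members called in PSCI against control, 172 to 1707 genes and 0 to 3 members in taVNS against PSCI, and 0 to 1 gene in taVNS against control. The labels do not say whether the replicate numbers pair rats, and the correlations that follow cannot settle it. Same-number correlations ran from -0.468 to 0.255, and 1 of 9 libraries was best matched by its own number. A fit with the replicate block gave 1084 and 518 genes and 0 members (adjusted p of 0.0635 for Lhfpl3, 0.0595 for Gpr17 and 0.0779 for Bmp4 in PSCI against control, 0.0811 for Lhfpl3 in taVNS against PSCI). The cause of these differences was not tested, except that fits on fewer libraries have fewer degrees of freedom. Called members kept their sign throughout, with little room to change it because their groups do not overlap. Uncalled members changed sign as follows. For PSCI against control Neu4 stood at 0.000627, 0.00312 and 0.000627 on RPKM and 0.0691 without both meningeal libraries, where Pdgfra stood at -0.0378, Cspg4 at -0.0184 and Bcas1 at 0.0203. Leaving out 1 library there gave -0.42 to 0.0399 for Bcas1, -0.0144 to 0.44 for Cspg4, -0.26 to 0.0889 for Neu4, -0.0181 to 0.21 for Pdgfra and -0.22 to 0.043 for Tnr. For taVNS against PSCI Neu4 stood at -0.0326 without both, and leaving out 1 library gave -0.00128 to 0.46 for Bcas1, -0.25 to 0.14 for Cspg4 and -0.0584 to 0.28 for Neu4. For taVNS against control, scaling by library size gave 0.00434 for Enpp6 and 0.00974 for Lhfpl3, the RPKM settings gave 0.25, 0.20 and 0.25 for Enpp6 and 0.11, 0.10 and 0.11 for Lhfpl3, and leaving out both libraries gave -0.0359 for Cspg4 and 0.0804 for Enpp6. Leaving out 1 library there gave -0.11 to 0.20 for Bcas1, -0.41 to 0.0889 for Bmp4, -0.10 to 0.35 for Cspg4, -0.11 to 0.0900 for Enpp6, -0.14 to 0.0145 for Gpr17, -0.0698 to 0.0276 for Lhfpl3, -0.0571 to 0.088 for Neu4 and -0.00744 to 0.19 for Tnr.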
